A study of Homo sapiens with 11 samples.

Results

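The genes described here are 10 members of the WNT system, namely the ligands WNT5A, WNT5B, WNT7A, WNT7B and WNT11, the secreted antagonists DKK1 and DKK3, and the receptors ROR1, ROR2 and FZD2. They were read by 16 of the 42405 probes on the array, or 10 of the 20249 genes that could be given a symbol. The members were chosen by their measured values in these arrays, above all by the A549 comparison, so their levels and differences are given as a description with no test. WNT ligands are secreted lipid-modified proteins that bind Frizzled receptors together with a co-receptor: LRP5 or LRP6 in the branch that stabilises beta-catenin and turns on TCF/LEF target genes, and ROR1, ROR2 or related proteins in the branch that acts on cell shape and migration without beta-catenin. DKK1 blocks the first branch by binding LRP5 and LRP6. WNT5A is a classic ligand of the second branch and is often studied in lung cancer for its link with motility.

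RNA from A549 and HCC827, established human lines of lung adenocarcinoma, was hybridised to 11 Agilent arrays in 1 colour. In each line, cells that stably carried a retroviral vector with wild-type TRIM58, a member of the tripartite motif family of ubiquitin ligases, tagged with FLAG (labelled WT, here TRIM58-WT), were set against cells that carried the empty pMXs-Neo vector (mock), and all cells had been selected with G418. The groups held 4 A549 mock arrays, 3 A549 TRIM58-WT arrays, 2 HCC827 mock arrays and 2 HCC827 TRIM58-WT arrays. Mock arrays 1-1 and 1-2 of A549 came from the same control cell and were averaged to 1 replicate, which left 10 replicates. The A549 transfectants were described as clones and the HCC827 transfectants as crude pools, so each A549 replicate may carry the features of 1 clone. Where nothing states that replicates were separate cultures, p-values measure only the spread between these samples, which may be technical.

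Values are given on a log2 scale, where 0 is the 75th percentile of the array's signals and a step of 1 is a 2-fold change. Values of different probes were not compared with each other. A value is called well above background where Agilent's software marked its spot so. Differences are TRIM58-WT minus mock, with standard errors over replicates, and they compare RNA of whole cultures, in which fewer cells of a type and less RNA per cell cannot be told apart.

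On all 5 TRIM58-WT arrays the probe for TRIM58 fell short of well above background, at -4.84, -4.63 and -4.63 in A549 and -5.64 and -5.38 in HCC827. Among the mock arrays it read -5.28, -5.33 and -5.18 on A549 arrays 1-1, 1-2 and 2 and -5.15 and -5.25 in HCC827, all not well above background, but -0.71 on the array labelled A549 mock 3, the only array where it was well above background. Whether this probe lies within the coding sequence carried by the vector was not analysed here, so it does not check the labels, and group names are those of the labels throughout.

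The array labelled A549 mock 3 also stood apart from the other mock arrays, with SDs of the probe differences of 0.68 to 0.82. These SDs were 0.29 between mock 1-1 and 1-2, of the same control cell, and 0.46 and 0.45 between these and mock 2. A549 TRIM58-WT 1 stood apart from TRIM58-WT 2 and 3, at 0.79 to 0.82 against 0.24. Deviations from the group mean correlated at 0.57 and 0.50 between mock 3 and TRIM58-WT 2 and 3. Between TRIM58-WT 1 and mock 1 and 2 they correlated at 0.50 and 0.41, and all other A549 pairs of mock with TRIM58-WT were negative. The signal at the 75th percentile was 56.6 to 62.5 on A549 mock 3 and TRIM58-WT 2 and 3, and 90.5 to 102.9 on the other A549 arrays. Slide 1 held A549 mock 1-1, mock 2, TRIM58-WT 1 and all HCC827 arrays, and slide 2 held the other A549 arrays. The A549 arrays were thus divided across the vectors, and slide 2 held arrays of both sides, so differences within slide 2 mix them. The part of this division in the A549 differences was not tested. Between 40.1% and 49.99% of probes were well above background on each array, and 0 spots were saturated. Of 10 epithelial markers, 8 to 9 were well above background in A549 mock, 5 to 6 in A549 TRIM58-WT, where KRT19, CLDN4, CLDN7 and ESRP1 were below it on every array, and 10 in HCC827. Of 6 alveolar markers, 0 to 1 were well above background in A549 mock, 0 to 2 in A549 TRIM58-WT and 2 to 5 in HCC827, and NKX2-1, SFTPA1, SFTPB and AQP5 were below it on all A549 arrays. Fibroblast markers were well above background for 0 to 1 of 8 genes and endothelial markers for 0 of 4 on every array. Of the leukocyte markers PTPRC, CD3E, CD14 and CD68, 2 to 3 were well above background in A549 mock, 1 to 3 in A549 TRIM58-WT and 2 to 3 in HCC827, CD3E on no array, and their summed level (log2) was 1.92 to 2.29 in A549 mock and 0.70 to 1.03 in A549 TRIM58-WT. Mesenchymal markers were well above background for 4 to 5 of 9 genes in A549 mock and 5 to 7 in A549 TRIM58-WT, and the part of these marker shifts in the results below was not tested.

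WNT5A had the largest difference of the members measured in A549. The A549 mock arrays 1-1, 1-2, 2 and 3 read -5.32, -4.78, -5.04 and -2.20, none of them well above background, whereas TRIM58-WT 1, 2 and 3 read 1.51, 1.70 and 1.66, all well above background. The groups did not overlap, and mock 3 was the highest of the mock arrays by a wide margin. The group means were -4.09 ± 1.64 (SD, n = 3) in mock and 1.62 ± 0.10 (SD, n = 3) in TRIM58-WT, and the difference was 5.72 (SE 0.95). Because the mock side was not well above background, the signal was at least 21.5-fold higher in TRIM58-WT, taking the lowest signal well above background on each mock array, or the probe's own where higher, as the floor. Without mock 3 the difference was 6.67, within slide 1 it was 6.68 and within slide 2 it was 5.17.

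In HCC827, no array had WNT5A well above background. The mock arrays read -5.48 and -5.44 and both TRIM58-WT arrays read -5.42, so no fold change was given. WNT5A transcript was therefore measured on the 3 A549 TRIM58-WT arrays and on no other array of the series. Plain background correction by another model (normexp), which compresses dim signals, left the same order in A549 with a difference of 2.33.

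**Figure D1:**
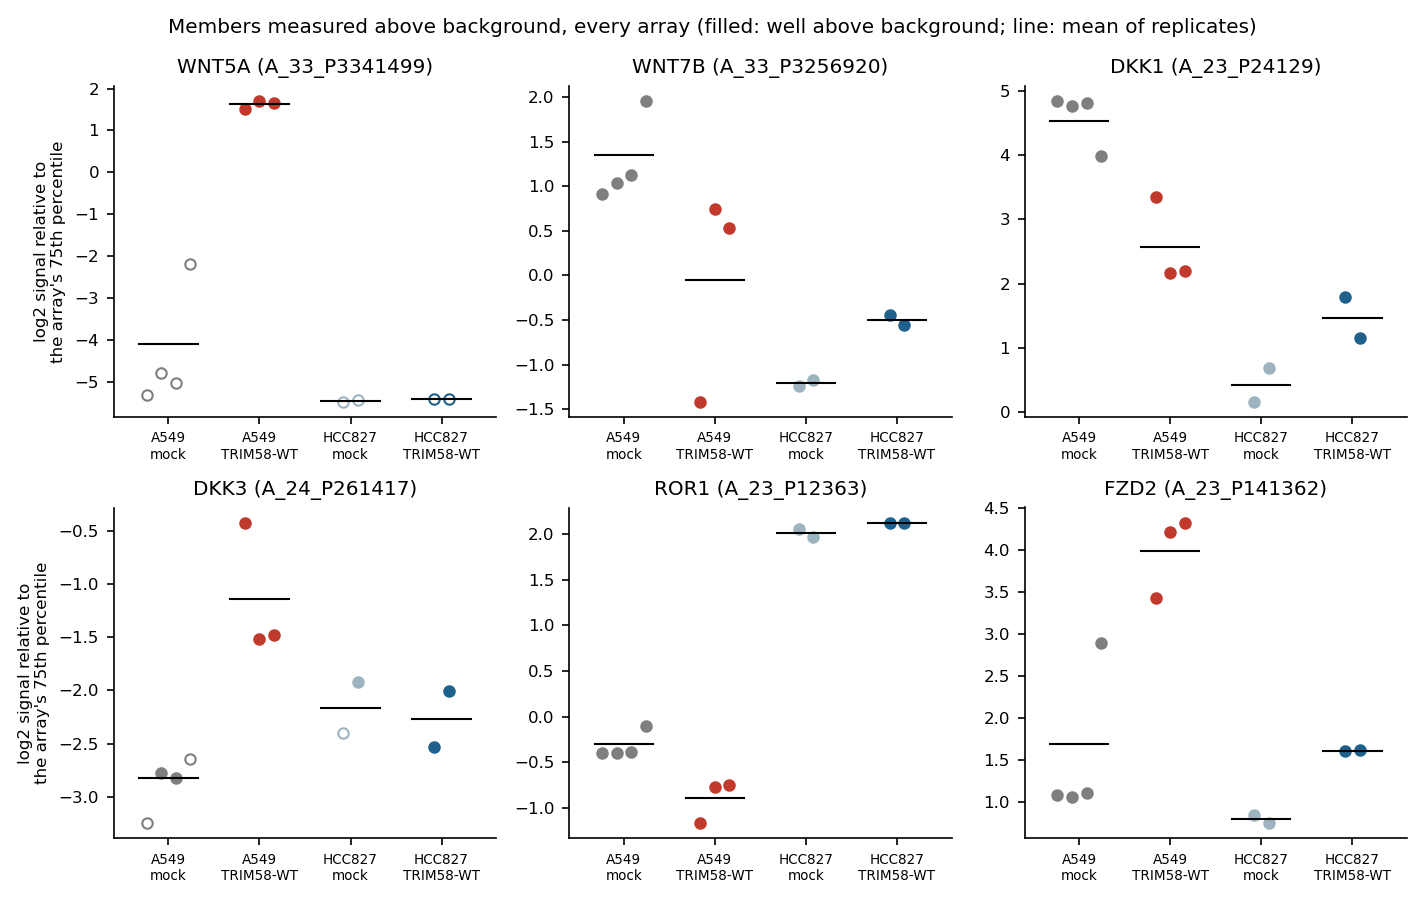
Log2 level (relative to each array's 75th percentile, y axis) of the brightest probe of the 6 members well above background in at least 1 group, on the 11 arrays, grouped by cell line and vector (x axis), with filled points for values well above background open points for values that were not, and a line at the mean of replicates. WNT5A rises from the background range in A549 mock to between 1.51 and 1.70 in A549 TRIM58-WT, while DKK1 falls from between 3.99 and 4.84 to between 2.17 and 3.35.

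The reference table held 2 starts for WNT5A, and the 250 bases upstream of each are shown because WNT5A was the member with the largest difference. The windows lie on the minus strand at chr3:55487307-55487556 and chr3:55481399-55481648 (RefSeq, GRCh38.p14). They were searched on both strands for the 4 strings made of CTTTG followed by AA, AT, TA or TT, core forms of the TCF/LEF binding motif, and a match would be in capitals. Of 35116 windows of the same length, 12% held at least 1 of these strings and 1.21% held 2 or more.
WNT5A, start 1: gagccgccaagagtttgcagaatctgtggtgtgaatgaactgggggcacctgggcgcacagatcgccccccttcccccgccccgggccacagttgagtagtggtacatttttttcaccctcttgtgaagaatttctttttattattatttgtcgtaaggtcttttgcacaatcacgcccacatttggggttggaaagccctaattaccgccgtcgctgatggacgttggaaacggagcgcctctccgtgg
WNT5A, start 2: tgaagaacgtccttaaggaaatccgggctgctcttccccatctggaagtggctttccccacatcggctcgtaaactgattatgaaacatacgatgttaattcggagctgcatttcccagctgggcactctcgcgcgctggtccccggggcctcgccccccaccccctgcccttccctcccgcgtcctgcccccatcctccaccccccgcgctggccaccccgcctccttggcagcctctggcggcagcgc

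Neither WNT5A window held a match, which says only that these letters are not in these windows. They held 14 and 18 CG dinucleotides, against a median of 11 over all windows. Promoter entries were found for 6 of the 10 members, in 8 windows, and the DKK1 window was the only one of the 8 with a match. No promoter is shown for WNT7B, WNT11, DKK3 and FZD2.

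WNT7B, a ligand of lung epithelium that can act through beta-catenin, was read by 3 probes, all of them lower in A549 TRIM58-WT and higher in HCC827 TRIM58-WT. The brightest probe read 0.92, 1.04, 1.12 and 1.96 on A549 mock 1-1, 1-2, 2 and 3 and -1.42, 0.74 and 0.53 on TRIM58-WT 1, 2 and 3, all well above background. The groups did not overlap, but TRIM58-WT 1 lay far below the other TRIM58-WT arrays. The means were 1.35 ± 0.53 (SD, n = 3) and -0.05 ± 1.19 (SD, n = 3), a difference of -1.40 (SE 0.75) that came to -0.71 without TRIM58-WT 1. Within slides 1 and 2 it was -2.44 and -0.86. Read from its brightest probe in each fit, WNT7B passed the threshold for a call in A549 only under the alternative with slide as a block. The same held for a difference between the lines.

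On the same probe, HCC827 mock read -1.24 and -1.17 and HCC827 TRIM58-WT read -0.44 and -0.55. Both TRIM58-WT arrays were above both mock arrays, by 0.71 (SE 0.06) on average. The other WNT7B probes gave differences of -2.002 (SE 1.31) and -2.64 (SE 0.64) in A549 and of 1.02 (SE 0.73) and 0.57 (SE 0.23) in HCC827. On the probe with the difference of -2.64 no A549 TRIM58-WT array was well above background, and the signal was at least 2.80-fold lower there. This probe passed the threshold for a call in A549, but calls of genes were counted on the brightest probe. The 3 probes thus shared the direction in each line but not the size of the difference.

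WNT5B, the close relative of WNT5A, WNT7A and WNT11 were each read by 1 probe that never stood well above background on the 11 arrays. Their values ran from -4.60 to -1.62 for WNT5B, from -5.40 to -2.77 for WNT7A and from -5.65 to -3.01 for WNT11. These 3 ligands were not measured at a level from which a difference could be given.

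DKK1, the secreted blocker of LRP5 and LRP6, was lower in A549 TRIM58-WT and higher in HCC827 TRIM58-WT. It read 4.84, 4.76, 4.81 and 3.99 on A549 mock 1-1, 1-2, 2 and 3 and 3.35, 2.17 and 2.20 on TRIM58-WT 1, 2 and 3, well above background throughout. The groups did not overlap, and the nearest arrays were mock 3 and TRIM58-WT 1. The means were 4.53 ± 0.47 (SD, n = 3) and 2.57 ± 0.67 (SD, n = 3), so that the level fell by 1.96 (SE 0.48), or 3.89-fold. Within slides 1 and 2 the differences were -1.48 and -2.19.

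DKK1 read 0.16 and 0.69 on the HCC827 mock arrays, and 1.80 and 1.15 with TRIM58-WT. The groups again did not overlap, in the opposite direction, with a difference of 1.05 (SE 0.42), or 2.07-fold. Across the 4 groups A549 mock was highest, then A549 TRIM58-WT, HCC827 TRIM58-WT and HCC827 mock, and no neighbours in this order overlapped. HCC827 TRIM58-WT thus stayed below every A549 array.

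The 250 bases upstream of the DKK1 start, at chr10:52314031-52314280 on the plus strand (RefSeq, GRCh38.p14), are shown because DKK1 differed in opposite directions in the 2 lines and was the only member with a match to the TCF/LEF strings. Capitals mark the 2 matches, whose first bases lie 95 and 76 bases upstream of the start.
DKK1: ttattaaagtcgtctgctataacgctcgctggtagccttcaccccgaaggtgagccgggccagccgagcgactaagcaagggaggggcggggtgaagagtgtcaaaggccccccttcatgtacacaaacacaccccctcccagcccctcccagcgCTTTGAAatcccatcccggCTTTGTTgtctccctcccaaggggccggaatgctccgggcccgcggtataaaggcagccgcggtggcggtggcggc

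DKK3, a relative of DKK1 that is not known as a strong LRP5 or LRP6 blocker and is often silenced in tumours, moved the other way from DKK1 in A549. Its brighter probe read -3.25, -2.77, -2.82 and -2.64 on A549 mock 1-1, 1-2, 2 and 3, where only 1-2 and 2 were well above background, and -0.42, -1.52 and -1.48 on TRIM58-WT 1, 2 and 3, all well above background. The groups did not overlap, and TRIM58-WT 1 was the highest. The means were -2.82 ± 0.18 (SD, n = 3) and -1.14 ± 0.62 (SD, n = 3), a difference of 1.68 (SE 0.37) or 3.21-fold. It was 2.61 within slide 1, 1.21 within slide 2 and 0.50 with normexp background correction.

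DKK3 read -2.40 and -1.92 in HCC827 mock, against -2.53 and -2.004 with TRIM58-WT, so the HCC827 groups overlapped, with a difference of -0.11 (SE 0.35). Across the 4 groups A549 TRIM58-WT was highest and apart from the others, the HCC827 groups overlapped each other, and A549 mock was lowest. The second DKK3 probe was well above background on 1 array, a TRIM58-WT array of A549.

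**Figure D2:**
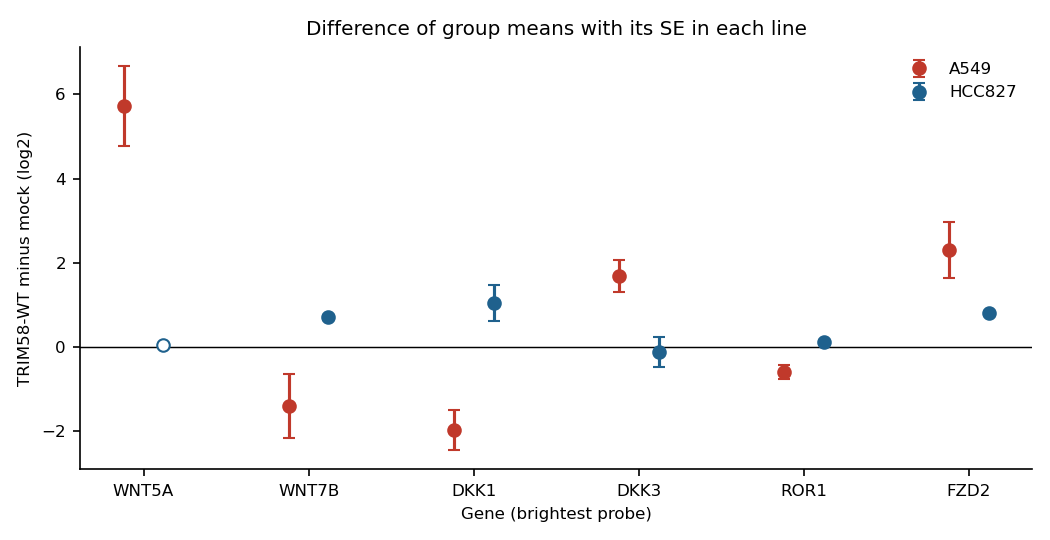
Difference TRIM58-WT minus mock (log2, y axis) with its standard error as the bar, for the brightest probe of 6 members (x axis) in A549 and HCC827, with an open point for WNT5A in HCC827, where no array was well above background. DKK1, WNT7B and ROR1 lie on opposite sides of 0 in the 2 lines, and FZD2 lies above 0 in both, at 2.30 and 0.82.

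FZD2, a Frizzled receptor that binds WNT5A among other ligands, was the only member well above background in both lines that lay above every mock array on every TRIM58-WT array of both. In A549 it read 1.08, 1.05, 1.098 and 2.90 on mock 1-1, 1-2, 2 and 3 and 3.43, 4.21 and 4.33 on TRIM58-WT 1, 2 and 3. All arrays were well above background, and mock 3 was again the mock array nearest to TRIM58-WT. The means were 1.69 ± 1.05 (SD, n = 3) and 3.99 ± 0.49 (SD, n = 3), a difference of 2.30 (SE 0.67) or 4.94-fold. It was 2.91 without mock 3, and 2.34 and 2.30 within slides 1 and 2.

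FZD2 read 0.84 and 0.74 on the HCC827 mock arrays, and 1.60 and 1.61 with TRIM58-WT. The difference of 0.82 (SE 0.05), or 1.76-fold, was larger than the spread within either group. A549 TRIM58-WT was the highest of the 4 groups and did not overlap A549 mock, while A549 mock overlapped HCC827 TRIM58-WT. HCC827 mock was the lowest and stood apart.

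ROR1, a receptor tyrosine kinase-like protein that binds WNT5A, was lower in A549 than in HCC827 whichever vector the cells carried. Its brightest probe read -0.40, -0.40, -0.39 and -0.11 on A549 mock 1-1, 1-2, 2 and 3 and -1.17, -0.77 and -0.75 on TRIM58-WT 1, 2 and 3, against 2.06 and 1.96 in HCC827 mock and 2.13 and 2.13 in HCC827 TRIM58-WT. All were well above background, and none of the 4 groups overlapped. The difference was -0.60 (SE 0.17) in A549, which normexp background correction brought to -0.24 and a shift of each array to its own median brought to -0.97. In HCC827 it was 0.12 (SE 0.05).

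Another ROR1 probe had a difference of -1.03 (SE 0.53) in A549 and 0.02 (SE 0.10) in HCC827, where its groups overlapped. The remaining ROR1 probe was well above background only in HCC827, at means of -1.34 and -1.30. ROR2, the other receptor of this family and a common partner of WNT5A, was read by 2 probes that never stood well above background. Of the 3 member receptors, FZD2 and ROR1 were well above background in A549 TRIM58-WT beside WNT5A, FZD2 at a higher and ROR1 at a lower level than in mock.

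Of the 10 members, each read from its brightest tested probe, 6 could be tested across the whole array in A549. Of these, 3 passed the threshold (adjusted p under 0.05 and at least 2-fold by limma with Benjamini-Hochberg adjustment), WNT5A and DKK3 higher and DKK1 lower. Over all 11203 genes tested, 7.98% passed, 3.91% higher and 4.07% lower. WNT5B, WNT7A, WNT11 and ROR2 did not pass the filter on dim probes. In A549, WNT5A and DKK3 passed it only through TRIM58-WT, the group where they were higher. The rule for the members used the values of all 4 groups, so nothing is read from their counts in this comparison or in those that follow. In HCC827, 0 of 5 members tested passed by limma, against 1.1% of all genes, 0.336% higher and 0.762% lower. By limma, 3 of the 5 had an unadjusted p under 0.05, as did 3981 of all 19563 probes tested. For the difference of the change between the lines, 4.63% of all genes had an adjusted p under 0.05, as did 2 of 6 members in that fit, WNT5A and DKK1, and WNT5A entered it only through A549 TRIM58-WT, the 1 group where it was well above background.

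The A549 calls of the members depended on single replicates. WNT5A was called under 17 of 21 alternatives and lost its call without mock 1 and without TRIM58-WT 3, at differences of 5.24 and 5.70. It also lost its call with the test the methods name for 2 groups and with TRIM58-WT replicates 2 and 3 averaged. DKK1 was called under 13 of 22 alternatives and DKK3 under 12 of 21, and both lost their call without mock 1, mock 2, TRIM58-WT 2 or TRIM58-WT 3. Both also lost it with normexp, with no filter on dim probes, with the methods' test and with that average. Between the lines, WNT5A was called under 10 of 20 alternatives and DKK1 under 8 of 21, and both lost that call without any 1 of the HCC827 replicates. FZD2, which did not pass in A549, was called under 8 of 22 alternatives, among them the fit without mock 3. The replicates of the A549 groups did not overlap for 6 of the 6 members measured, against 34% of all genes, and those of the HCC827 groups for 4 of 5, all but DKK3, against 59.2% of all genes.

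The levels of other genes over the 10 replicates were set against WNT5A as a description, among 3181 genes that were well above background in at least 1 group and had an SD of at least 1 (log2). The points share arrays, lines and vectors, and the A549 TRIM58-WT replicates stand apart from all others in WNT5A. The 5 genes with the highest Pearson r with WNT5A were KIRREL3 (0.995), GXYLT2 (0.993), NKAIN4 (0.992), WIPF1 (0.989) and EPHA5-AS1 (0.989), and the 5 with the lowest were ERBB3 (-0.998), C1orf226 (-0.993), SCEL (-0.991), RAB17 (-0.990) and F11R (-0.989). Among the members, FZD2 had an r of 0.96 with WNT5A, DKK3 0.75, DKK1 0.16, WNT7B 0.15 and ROR1 -0.76. The A549 mock 3 replicate lay between the other mock replicates and the TRIM58-WT replicates for WNT5A and for each of these 10 genes. With ranks in place of values (Spearman), 0 of the 10 genes remained among the 5 highest or lowest, and with quantile normalization 8 did.

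**Figure D3:**
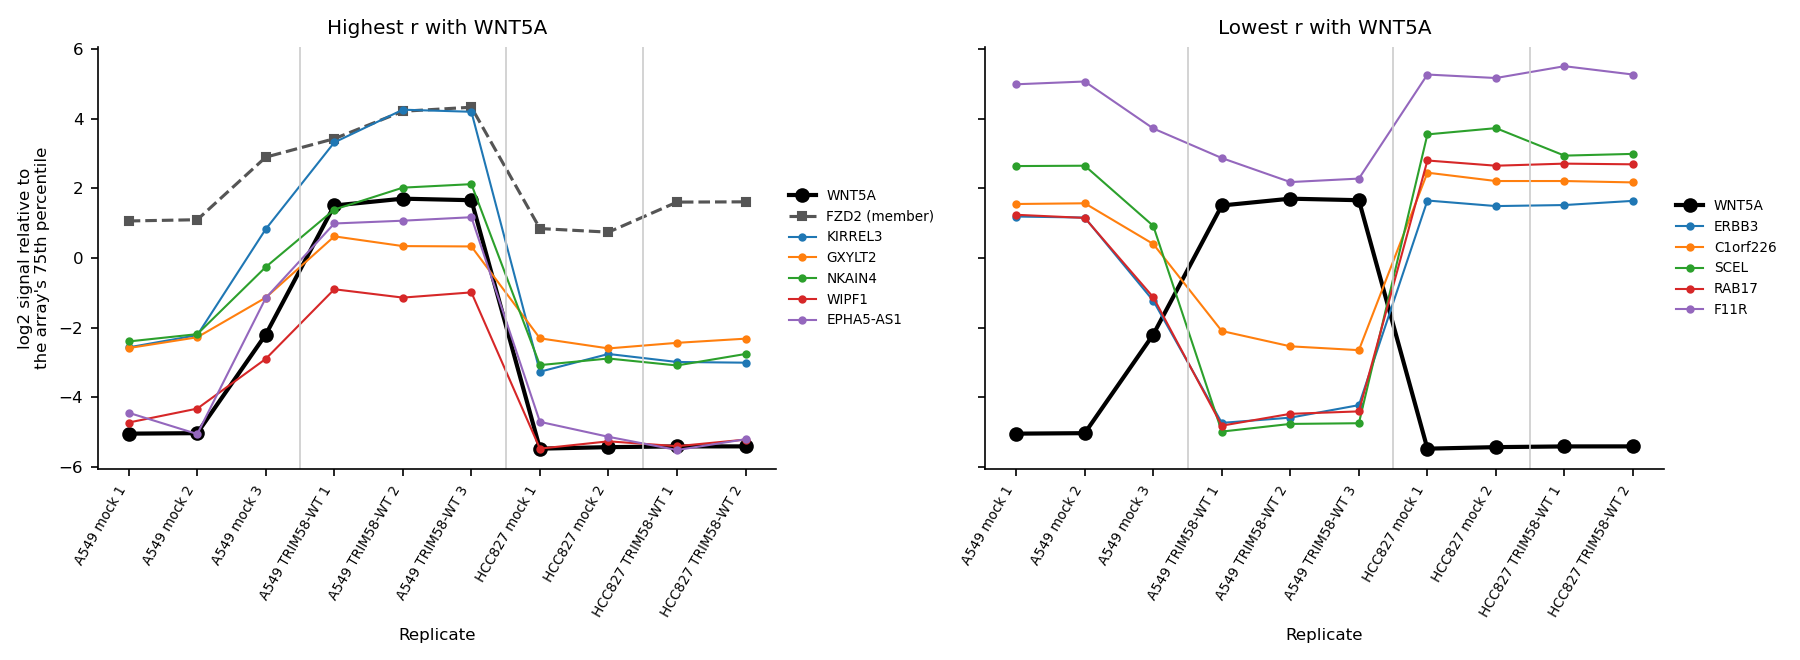
Log2 level (relative to the 75th percentile, y axis) of WNT5A and of the genes with the highest (left, with FZD2 dashed) and lowest (right) r with it over the 10 replicates (x axis). The A549 TRIM58-WT replicates of WNT5A stand at 1.51 to 1.70, and the A549 mock 3 replicate lies between the other mock replicates and these.

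The other genes of the pathway were described from lists of 107 genes outside the members, of which 106 had a probe. In A549, 67 could be tested, and by limma with Benjamini-Hochberg adjustment 5 were higher and 2 lower in TRIM58-WT, or 10.4% against 7.98% of all genes. Their median difference was 0.13, against 0.03 over all genes. In HCC827, 61 were tested by limma, and 0 were higher and 1 was lower, or 1.64% against 1.1% of all genes. The median difference was 0.03, against 0.01 over all genes. The unadjusted limma p was under 0.05 for 21 of the 61, 12 of them higher, and for 3981 of all 19563 probes tested.

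Of 14 other WNT ligands, 3 could be tested in A549 (WNT3, WNT6 and WNT10B, named after their values were seen) and 0 passed by limma in either line (at an unadjusted p under 0.05, 0 in A549 and 1 in HCC827). Of 14 other receptors and co-receptors, 11 were tested in A549, and FZD9 rose by 1.14 (limma SE 0.25, adjusted p = 0.0419). The co-receptors that DKK1 blocks, LRP5 and LRP6, had A549 differences of -0.06 (adjusted p = 0.909) and 0.18 (adjusted p = 0.573) by limma.

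Among 16 other antagonists, 4 were tested in A549 and SFRP1, a secreted Frizzled-related decoy, rose. SFRP1 read -1.05, -1.12, -1.08 and -0.82 on A549 mock 1-1, 1-2, 2 and 3 and 1.13, 0.66 and 0.83 on TRIM58-WT 1, 2 and 3, a change of 1.87 (limma SE 0.19, adjusted p = 0.00427). It was below background on all HCC827 arrays. Of 11 genes of WNT secretion and the R-spondin axis, LGR6, an R-spondin receptor, fell by 3.07 in A549 (limma SE 0.36, adjusted p = 0.00701). RNF43, a ligase that removes Frizzled receptors from the surface, fell by 1.94 in HCC827 (limma SE 0.14, adjusted p = 0.0340) and had a difference of -3.51 in A549 that did not pass (adjusted p = 0.0551). RNF43 lost its HCC827 call with all groups in one fit, with no filter on dim probes and with the test the methods name for 2 groups.

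Of 24 genes of the beta-catenin core, 22 were tested in A549, and 3 rose and 1 fell. TCF7L1, a TCF that often represses, rose by 2.13 (limma SE 0.38, adjusted p = 0.0237), PYGO1, a beta-catenin co-activator, by 1.14 (SE 0.21, adjusted p = 0.0277) and TLE4, a co-repressor, by 1.04 (SE 0.21, adjusted p = 0.0323). Among the A549 mock arrays, TCF7L1 was well above background on mock 3 alone and PYGO1 on mock 1-2 and 3 alone, so their rises have no exact size. CTNNB1, which encodes beta-catenin, differed by 0.12 (adjusted p = 0.848). The planar polarity and calcium arm is the one WNT5A is best known for. By limma, 0 of its 20 genes tested in A549 and 0 of 22 in HCC827 passed. The unadjusted limma p was under 0.05 for 5 and 6 of them. Of all probes tested, this held for 4276 of 16924 in A549 and 3981 of 19563 in HCC827. FZD9, TCF7L1, PYGO1 and TLE4 each lost their call without mock 1, mock 2, TRIM58-WT 2 or TRIM58-WT 3, at limma adjusted p from 0.0921 to 0.166, and FZD9 also without TRIM58-WT 1 (adjusted p = 0.0640).

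**Figure D4:**
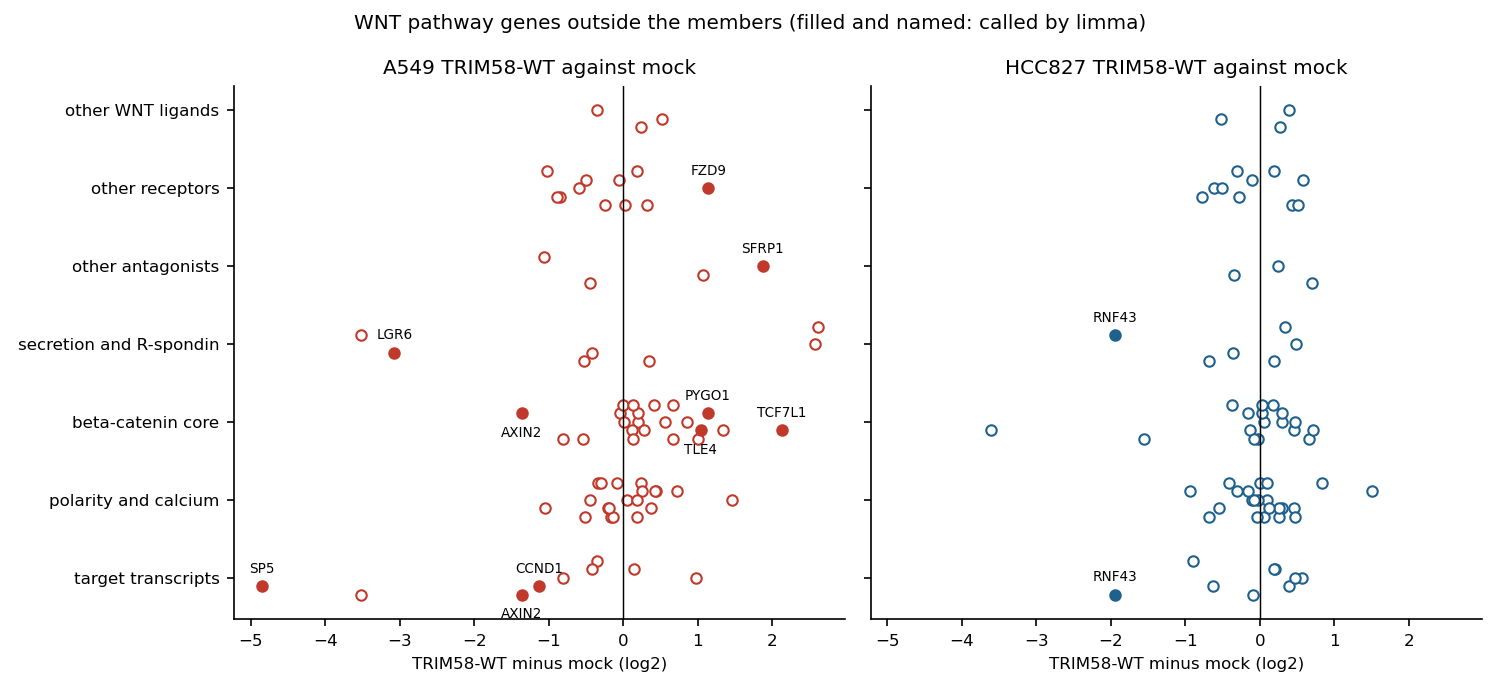
Difference TRIM58-WT minus mock (log2, x axis) of each pathway gene tested, by list (y axis), in A549 and HCC827, with called genes (limma, adjusted p under 0.05 and at least 2-fold) filled and named. In A549, the called genes include SFRP1 (1.87), TCF7L1 (2.13), LGR6 (-3.07) and SP5, drawn at its measured -4.85 though its TRIM58-WT side was not well above background, and in HCC827 RNF43 (-1.94) is the called gene.

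A last list held 17 transcripts often read as targets of beta-catenin, of which 9 were tested in A549 (AXIN2, TCF7 and RNF43 are also in the lists above). Of these, 3 fell and 0 rose past the threshold by limma, against 4.07% lower and 3.91% higher of all genes tested. The unadjusted limma p was under 0.05 for 6 of the 9, of which 1 rose, and for 4276 of all 16924 probes tested. The median difference was -0.80 over the 9, against 0.03 over all genes. CD44 rose by 0.98 (limma SE 0.19, adjusted p = 0.0291) and TCF7 fell by 0.80 (limma SE 0.15, adjusted p = 0.0294). Both fell short of the 2-fold minimum alone and were named after their values were seen. The second TCF7 probe had a difference of -0.28 (limma adjusted p = 0.564). SP5, a zinc finger factor that responds directly to the pathway, read 0.54, 0.57, 0.47 and -0.03 on A549 mock 1-1, 1-2, 2 and 3, and -4.04, -4.76 and -4.75 on TRIM58-WT 1, 2 and 3, none of these last well above background. It was at least 7.79-fold lower there (limma adjusted p = 0.000643). AXIN2, a feedback inhibitor, fell by 1.36 (limma SE 0.17, adjusted p = 0.00813), and its second probe had a difference of -2.04 (adjusted p = 0.0788). CCND1, which encodes cyclin D1, fell by 1.13 (limma SE 0.24, adjusted p = 0.0395). In HCC827, 9 were tested, and RNF43 alone was lower, against 0.762% of all genes. The median difference over these 9 was 0.19.

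AXIN2 lost its call without TRIM58-WT 2 (limma adjusted p = 0.0534) and without TRIM58-WT 3 (limma adjusted p = 0.0508), and CCND1 lost its call when any 1 of the 6 A549 replicates was left out. The promoter of SP5, at chr2:170715087-170715336 on the plus strand (RefSeq, GRCh38.p14), is shown as that of the called transcript of this list that was no longer well above background in A549 TRIM58-WT, beside those of WNT5A and DKK1. It held 3 of the TCF/LEF strings, in capitals, with first bases 148, 109 and 84 bases upstream of the start, and TTCAAAG is CTTTGAA read on the other strand. Promoter entries were found for 8 of the 17 transcripts, in 11 windows, of which 2 held a match, against 12% of all windows. No promoter is shown for AXIN2 and CCND1.
SP5: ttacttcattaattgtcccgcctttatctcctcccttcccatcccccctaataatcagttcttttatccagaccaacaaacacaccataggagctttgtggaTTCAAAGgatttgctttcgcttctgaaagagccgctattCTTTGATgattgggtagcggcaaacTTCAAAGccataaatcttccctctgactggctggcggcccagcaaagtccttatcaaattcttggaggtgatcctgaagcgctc

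**Figure D5:**
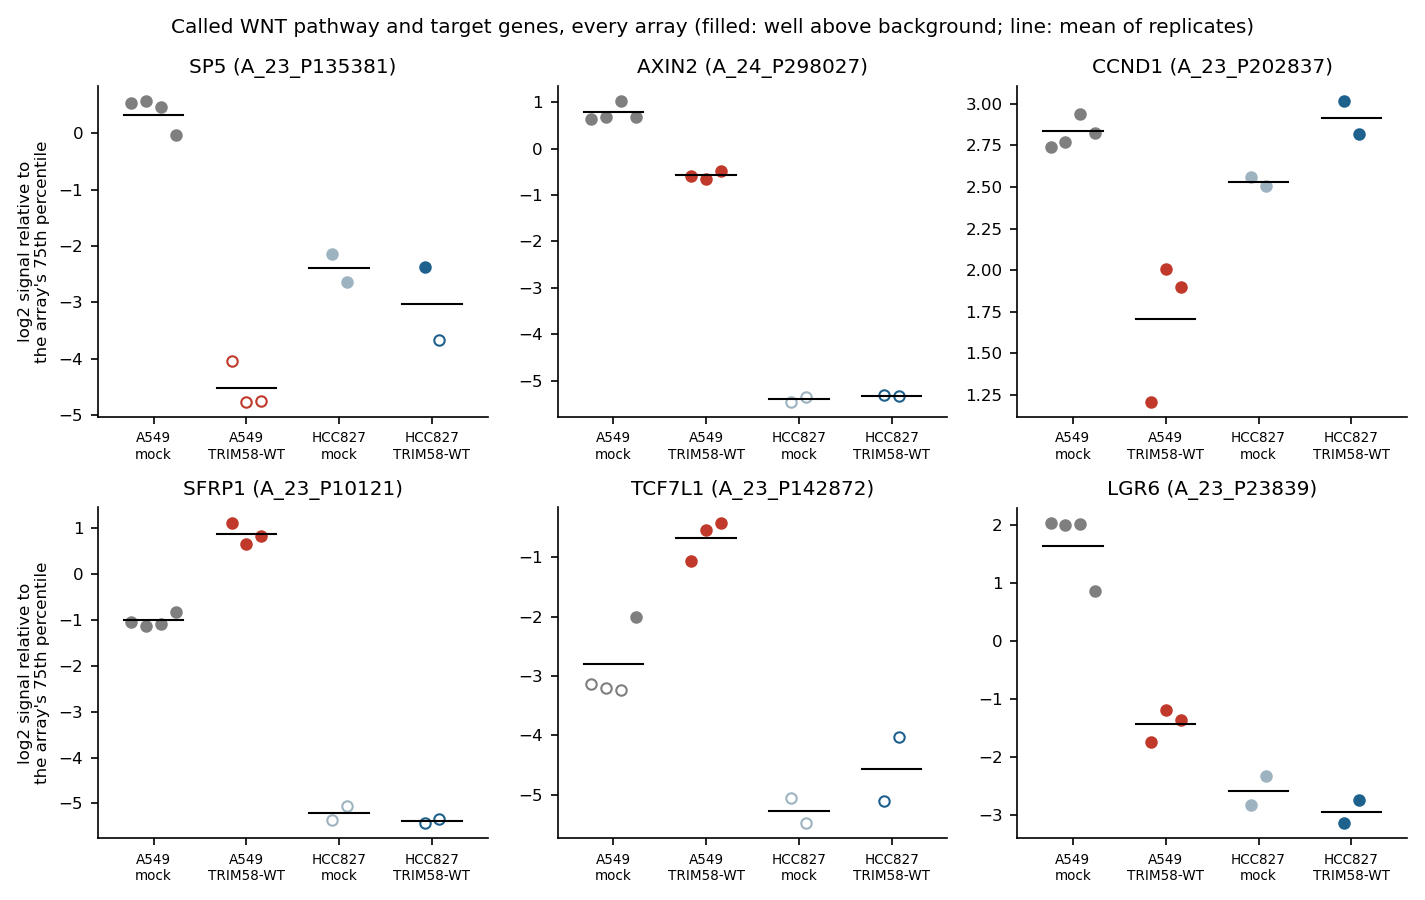
Log2 level (relative to the 75th percentile, y axis) on each array of 6 called pathway and target genes, by group (x axis), with a line at the mean of replicates and open points for values not well above background. SP5 stands at -0.03 to 0.57 on the A549 mock arrays and at -4.76 to -4.04 on the A549 TRIM58-WT arrays.

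Scaling changed the balance of the calls. A shift of each array to its own median moved the median difference of all probes in A549 from 0.06 to -0.31, and the share of called probes that were higher in TRIM58-WT from 50.5% to 25.6%. In HCC827 that share moved from 32.9% to 45.7%, and for the difference between the lines from 47.4% to 27.9%. The A549 differences of WNT5A (5.35), FZD2 (1.94), DKK1 (-2.33) and WNT7B (-1.77) kept their direction under this shift.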

How the data were processed

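RNA of the cell lines was labelled with Cy3 and hybridised to 1-colour Agilent arrays. The authors deposited, for each array, the spot intensity (processed signal) from Agilent Feature Extraction, named as version 10.7 in the submitters' processing notes and 11.5.1.1 per the file headers, with background subtracted and no scaling between arrays. They also deposited a table of log2 values, used here as an alternative. Groups follow the labels.

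Control and outlier spots were left out, spots of a probe were averaged, and log2 values centred on the 75th percentile of the array (28 values were missing). Of 42405 probes, 27241 (64.2%) were named through RefSeq accessions. A probe was tested if all arrays of at least 1 compared group had it well above background, and a gene was read from its brightest tested probe. limma 3.58.1 (R 4.3.3) with Benjamini-Hochberg adjustment was used, with calls at adjusted p under 0.05 and 2-fold, or adjusted p alone for differences between lines. The number of arrays limits the precision. In simulated data, 62%, 60% and 43.5% of 200 probes changed by 2 (log2) were recovered for A549, HCC827 and the difference between lines.

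Members, lists and tests were chosen with earlier results of these data known. Named were all members, TRIM58, LRP5, LRP6, CTNNB1, AXIN2, SFRP1, the called genes of each list (at most 8), and the 5 genes most and least like WNT5A. One leukocyte marker is not reported here. Alternatives covered normalization, background, filters, blocks, replicates and the test the methods name for 2 groups.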

Additional observations from a re-analysis of the deposited data

Results flagged for a closer look

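Of 72 pathway genes tested by limma with Benjamini-Hochberg adjustment, 3 had a higher and 4 a lower TRIM58-WT change in A549 than in HCC827. That was 9.72%, against 4.63% of all genes, and SP5 of the list of targets differed as well. Values are the A549 change minus the HCC827 change (log2). The measured value was 2.04 for SFRP1 (adjusted p = 0.00770) and -1.45 for AXIN2 (adjusted p = 0.0155), both below background on every HCC827 array. For both, no HCC827 change was measured, so the value rests on the A549 change and has no exact size. For SP5 the measured value was -4.22 (adjusted p = 0.00789), of no exact size because no A549 TRIM58-WT array and only 1 HCC827 TRIM58-WT array had SP5 well above background. The difference was -1.28 for TCF7 (adjusted p = 0.0172) and -2.71 for LGR6 (adjusted p = 0.0324). The second TCF7 probe, not well above background on any HCC827 array, gave -0.0051 (adjusted p = 0.997). For NFATC1, a transcription factor of the calcium arm, the measured value was 1.65 (adjusted p = 0.0196). It has no exact size, because NFATC1 was well above background on no A549 mock array but 1-2 and on no HCC827 TRIM58-WT array. The difference was 1.68 for TLE2 (adjusted p = 0.0276), a co-repressor, and -1.14 for KREMEN1 (adjusted p = 0.0440), a DKK1 receptor. TCF7, LGR6, NFATC1, TLE2 and KREMEN1 each lost this call with no filter on dim probes and without A549 mock 1 or mock 2. AXIN2 also lost it with no filter. With a median shift, all of these but LGR6 lost it, and so did SFRP1. SP5 kept its call under each of these alternatives.

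For 3 members, on their brightest probe, every TRIM58-WT replicate was below every mock replicate in A549 and above every one in HCC827. Of all genes, 34% in A549 and 59.2% in HCC827 had groups that did not overlap, in either direction. For ROR1 the pattern held on the brightest probe only, since the groups of its other probes overlapped in HCC827. The A549 change minus the HCC827 change was -3.01 for DKK1, -2.11 for WNT7B and -0.71 for ROR1. These members were chosen on their values, so the difference is a description, and whether it holds in samples that the choice did not use was not tested.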

How the results depend on the processing

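The count of members whose groups did not overlap, in the same direction as reported, was 5 to 6 in A549 and 3 to 4 in HCC827 under the alternatives run; in HCC827, all 5 were apart in one direction or the other without mock 1 or without TRIM58-WT 2. Of 260 alternative differences of the members, 35 moved by more than 1 SD and 10 changed sign, those of WNT7A in both lines and of DKK3, WNT5B, WNT11 and ROR2 in HCC827, none of them called. Of 519 alternative values of named pathway genes, 374 kept their direction and side of the threshold, 133 lost their call, 1 gained one and 11 changed sign, all in A549 and none of them called. These were CTNNB1 with a median shift (-0.25), normexp (-0.0404) and TRIM58-WT replicates 2 and 3 averaged (-0.0283), LRP6 with a median shift (-0.19), LRP5 with that average (0.0411), and both CTNNB1 and LRP5 without single replicates (-0.0453 to 0.41 and -0.26 to 0.0784). The counts of pathway genes called did change. Higher in A549 (5), they were 2 with a median shift, 1 with normexp, 1 with no filter, 3 with a filter on every array, 3 with mock array 1-1 alone, 0 with the methods' test and 1 with TRIM58-WT replicates 2 and 3 averaged, an alternative chosen after seeing the data. Lower in A549 (2), they were 4 with the replicate block, with all groups in one fit or with slide as a block, 0 with the methods' test and 1 with that average. Targets lower in A549 (3) were 0 with the methods' test and 1 with that average, and targets higher (0) were 1 with the mock arrays kept as 2 replicates. In HCC827, genes higher (0) were 1 with quantile normalization, a median shift or a filter on every array. Genes lower in HCC827 (1) were 2 with a median shift or a filter on every array, and 0 with no filter, the replicate block or the methods' test. Genes differing between lines (7) were 1 with a median shift, 2 with no filter, 4 with a filter on every array, 1 with the replicate block and 3 with that average.

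Leaving out 1 replicate at a time gave 1 to 8 pathway genes higher and 1 to 5 lower in A549, 0 to 1 targets higher and 1 to 3 lower, 0 to 1 genes higher and 0 to 2 lower in HCC827, and 1 to 11 differing between lines. The 8 and the 11 came without A549 mock 3, the 5 without TRIM58-WT 1, and 1 higher without mock 1, mock 2, TRIM58-WT 2 or TRIM58-WT 3. RNF43, the gene lower in HCC827, lost its call without either mock replicate and without TRIM58-WT 1. Between lines there were 1 to 3 without any 1 replicate other than A549 mock 3 and TRIM58-WT 1. In HCC827, and wherever an arm was left with 1 sample, that sample was assumed to vary like the other group.

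Over all probes, calls in A549 (1171) were 507 with normexp, 609 with no filter, 673 with a filter on every array, 24 with the methods' test, 1802 with slide as a block, 341 with TRIM58-WT 2 and 3 averaged and 297 to 2193 without 1 replicate. In HCC827 (173) they were 633 with a median shift, 106 with normexp, 367 with a filter on every array, 0 with no filter (4381 at unadjusted p under 0.05), 0 with the replicate block (3850) and 0 with the methods' test (1500), and 0 to 461 without 1 replicate. Between lines (796) they were 527 with a median shift, 452 with no filter, 394 with a filter on every array, 432 with that average, 1688 with slide as a block, 323 with the replicate block and 224 to 2216 without 1 replicate. Replicate numbers did not pair the samples, with correlations of same-numbered deviations of 0.50, -0.42 and 0.50 in A549, so the replicate block stands only here. The causes of these changes were not tested.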
